A study of Mus musculus with 12 samples.

Results

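The sebaceous lipid synthesis genes described here are Scd1, Scd3, Elovl3, Fasn, Dgat2, Mc5r, Soat1, Far2 and Acaca. They were chosen by name: every probe whose gene name in the array files equals a member was taken, which gave 18 probes for the 9 genes, of 41174 probes and 27373 gene names on the array. The rule that matches probes uses no measured value, but the members were chosen with earlier results of these data known. The RNA came from whole back skin of male C57BL/6J mice, 8 weeks old, that received 200 µL per day from the day after shaving. The groups were 3% MXD (minoxidil), 10% N-CE (a cell extract of the cactus Notocactus ottonis) and VC, the vehicle control of propylene glycol, ethanol and water in the proportion 5:3:2. Skin was sampled after 1, 2 and 3 weeks (1W, 2W, 3W), and for each group and week the RNA of 6 mice was combined. A treated pool and the VC pool of that week were hybridized together on 2 arrays, the second being the dye swap of the first, which gave 12 arrays and 6 comparisons. Each group at each week is therefore 1 pool without a biological replicate. All 4 arrays of any week lie on the same slide, which cannot be told apart from the week, and MXD and N-CE of a week are compared with the same VC pool. In whole skin, fewer sebaceous cells and less RNA per cell cannot be told apart.

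Sebaceous glands open into the hair follicle and secrete sebum, a mixture of triglycerides, wax esters, cholesterol esters and free fatty acids that is released when the filled gland cell bursts. The supply starts with acetyl-CoA carboxylase (Acaca) and fatty acid synthase (Fasn), whose product is lengthened by elongases such as Elovl3 and desaturated by stearoyl-CoA desaturases (Scd1, Scd3). Diacylglycerol acyltransferase (Dgat2) makes triglyceride, fatty acyl-CoA reductase (Far2) makes the fatty alcohols of wax esters, sterol O-acyltransferase (Soat1) makes cholesterol esters, and Mc5r is the melanocortin receptor of the gland. Mice lacking Scd1 have atrophied sebaceous glands and lose hair. Acaca, Fasn, Scd1 and Dgat2 are also strongly used by fat cells, which whole back skin contains, so these members do not mark the gland alone.

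Values are log2 ratios of treated skin over VC skin, positive where the treated pool was higher, with the SD between the 2 dye orientations, which describes the measurement and not the mice. Each gene was read through its probe with the highest mean signal. It was called higher or lower when each array gave an error-model P of the scanner software under 0.01, both ratios had the same sign, and the mean fold was above 1.5 or below 0.75. A gene was counted as measured when that probe was well above background in at least 1 group on both arrays, and all 9 members were measured in each of the 6 comparisons. Among all genes measured, the median log2 ratio lay between -0.01 and 0.02, and no further centring was applied. The LOWESS dye normalization of the deposited ratios brings this median near 0. It is therefore no check on the ratios of single probes. Saturated spots numbered 0 on every array. Among probes above background in both groups, the correlation between both arrays of a dye swap, taken over probes, which are not independent replicates, was 0.57, 0.71 and 0.26 for the 3 weeks of MXD and 0.60, -0.17 and 0.35 for those of N-CE. Every N-CE ratio at 2W rests on the pair of arrays whose ratios correlated negatively. Whether both of these arrays carry the dye orientation of their labels, or hold a usable hybridization, was not tested, so the sign and size of the N-CE values at 2W are uncertain.

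Promoter sequence was read from the RefSeq promoter table of build GRCm38.p6 for the members it holds, 5 of 9: Scd3, Fasn, Soat1, Far2 and Acaca. The 250 bases before the start are printed for Fasn and Far2, which were called lower with MXD, and for Soat1, which was not called in any comparison, each 5′ to 3′ along the gene. Capitals mark matches, on either strand, to the motifs searched: the E-box CACGTG, the sterol response element-like TCACNCCAC, the CCAAT box, the GC box GGGCGG and the nuclear receptor half-site AGGTCA. Fasn lies at chr11:120824548-120824797 on the minus strand, Far2 at chr6:148047166-148047415 on the plus strand and Soat1 at chr1:156474329-156474578 on the minus strand.
Fasn: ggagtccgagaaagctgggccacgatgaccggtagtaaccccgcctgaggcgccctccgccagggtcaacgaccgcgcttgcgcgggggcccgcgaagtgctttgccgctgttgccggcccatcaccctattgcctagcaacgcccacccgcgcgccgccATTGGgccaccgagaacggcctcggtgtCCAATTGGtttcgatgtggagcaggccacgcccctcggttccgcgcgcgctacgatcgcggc
Far2: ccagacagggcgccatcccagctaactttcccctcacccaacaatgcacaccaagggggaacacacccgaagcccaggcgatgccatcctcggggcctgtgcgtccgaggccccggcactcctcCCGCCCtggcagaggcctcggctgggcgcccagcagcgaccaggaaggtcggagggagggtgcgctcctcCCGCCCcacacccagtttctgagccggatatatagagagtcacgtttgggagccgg
Soat1: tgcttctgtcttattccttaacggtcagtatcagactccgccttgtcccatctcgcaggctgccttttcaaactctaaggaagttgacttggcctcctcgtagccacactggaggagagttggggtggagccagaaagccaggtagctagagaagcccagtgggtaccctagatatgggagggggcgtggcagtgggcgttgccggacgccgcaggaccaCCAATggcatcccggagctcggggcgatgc
The Fasn window held 3 CCAAT matches, of which the ones starting 62 and 59 bases before the start overlap by 2 bases on opposite strands. The Soat1 window held 1 CCAAT match, 30 bases before the start, and the Far2 window held 2 GC box matches. Scd3 and Acaca held 0 matches to any of the motifs. Of all 32851 promoter windows of this length, 33.8% held a CCAAT match, 32.7% a GC box, 14.0% the half-site, 6.02% the E-box and 1.05% the sterol response element-like motif, so the matches found are of the common kinds. The share of G and C was 69.2% for Fasn, 67.2% for Far2 and 58.8% for Soat1, against 39.2% for Acaca, 52.4% for Scd3 and a median of 52.4% over all windows. A match describes letters in the window and nothing about binding.

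By these criteria, MXD at 2W was the comparison with the most members called. By fold alone 7 members were lower in MXD at 1W, where 6.19% of all genes were, and 4 at 2W, where 21.9% were. Fasn, Scd1 and Dgat2 were lower than in VC, by 1.64- to 1.89-fold in the mean of both arrays, whereas Elovl3 and Soat1 had means above VC and were not called. In all, 3 of 9 members were called lower and 0 called higher, where 11.0% of all 17130 measured genes were called lower and 6.8% higher. The median of the 9 members was -0.40 ± 0.35.

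Fasn, the synthase that builds palmitate, had processed signals in VC of 123983 on the array with MXD in Cy5 and 90403 on the array with MXD in Cy3, against 65676 and 53299 in MXD. Both MXD readings were below both VC readings, and the log2 ratios were -0.92 and -0.76. Fasn fell by 0.84 ± 0.11 on the log2 scale, a fold of 0.559, with P of 3.24e-05 and 0.000407. Its probe A_51_P321126 lies at chr11:120668460-120668519 of mm9 on the minus strand. A further probe, A_52_P100252 (chr11:120667666-120667725), gave -0.82 ± 0.27 and met the same criteria, so the call did not depend on the probe.

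Scd1, the main stearoyl-CoA desaturase of mouse skin, gave VC signals of 87984 and 78171 and MXD signals of 50913 and 37896. Both MXD readings were below both VC readings, which are technical readings of 1 pool each. The share of all genes separated in this way, as Fasn and Dgat2 were too, was not determined. Scd1 fell by 0.92 ± 0.18 on the log2 scale, a fold of 0.53, with P of 0.000265 and 3.55e-06, the largest mean ratio in size among the members' brightest probes in any comparison. It has 1 probe, A_52_P682382, at chr19:44469387-44469446 of mm9 on the minus strand. Scd3, its sebocyte paralogue with probe A_51_P446045 at chr19:44316703-44316762 on the plus strand, was read by a probe that shares 21 of 60 bases with the Scd1 probe at the best ungapped placement and 6 in a row, so the 2 probes are distinct. Scd3 gave -0.15 and -0.65 in MXD at 2W, mean -0.40 ± 0.35, and was not called.

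Dgat2, which adds the last fatty acid of triglycerides, had VC signals of 87309 and 76984 and MXD signals of 55920 and 44444. Again no MXD reading reached a VC reading. Dgat2 fell by 0.72 ± 0.11 on the log2 scale, a fold of 0.608, with P of 0.00247 and 0.000252. Its 3 probes lie within chr7:106302215-106303111 of mm9 on the minus strand, and the other two gave -0.71 ± 0.23, which met the criteria, and -0.66 ± 0.21, where P was 0.014 on 1 array and the criteria were missed. Fasn and Dgat2 thus had all their probes on the same side with means that differed by less than the spread between arrays.

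Far2, the reductase that makes fatty alcohols for wax esters, was called at 1W and not at 2W. In MXD at 1W its probe A_52_P66561 (chr6:148124096-148124155 of mm9, plus strand) had VC signals of 2250 and 2544 and MXD signals of 1273 and 1544, log2 ratios of -0.82 and -0.72. It was the only member called at 1W, falling by 0.77 ± 0.07 on the log2 scale, a fold of 0.586, with P of 0.000157 and 0.000787. In MXD at 1W, 1.36% of 17261 measured genes were called lower and 1.34% higher, against 1 of 9 members lower and 0 higher. At 2W the mean was as low, -0.81 ± 0.55, but the arrays gave -0.42 with P of 0.0426 and -1.20 with P of 2.37e-07, and Far2 was not called. A further Far2 probe, A_52_P628411, was well above background in 1 of 24 channel readings, so Far2 rests on 1 probe.

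At 1W the other members with ratios below 0 in MXD were not called. Scd1 gave -0.56 and -0.33 (mean -0.44 ± 0.16), Fasn -0.44 on each array and Dgat2 -0.46 and -0.37 (mean -0.42 ± 0.06). Scd3 gave -0.52 and -0.65 with a mean of -0.58 ± 0.09, where P was 0.013 on 1 array. Acaca, the carboxylase that makes malonyl-CoA for Fasn, gave -0.27 and -0.56 with a mean of -0.42 ± 0.21. Its further probes gave -0.11 ± 0.49, -0.03 ± 0.22 and, not well above background, -0.31 ± 1.64. Of the 9 members, 7 were below VC at 1W and the median was -0.44 ± 0.00. Elovl3 with 0.03 ± 0.18 and Soat1 with 0.06 ± 0.03 were the members not below VC by their brightest probes. For Soat1 this depended on the probe. A_52_P651833 gave -0.35 and -0.07 (mean -0.21 ± 0.20), and A_52_P642167 gave 0.02 ± 0.19.

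Elovl3, an elongase of very long saturated and monounsaturated chains, was at or above VC in MXD at every week, with means of 0.03 ± 0.18, 0.18 ± 0.00 and 0.32 ± 0.20 at 1W, 2W and 3W. Soat1, which stores cholesterol as ester, had means of 0.06 ± 0.03, 0.41 ± 0.36 and 0.20 ± 0.05. Neither was called at any week. On Soat1 the arrays at 2W gave 0.15 and 0.66, and its further probes gave 0.49 ± 0.34 and 0.11 ± 0.56. At 3W these further probes gave 0.25 ± 0.07 and -0.11 ± 0.08. Acaca at 2W gave 0.23 on 1 array and -0.46 on the other, so no direction can be given there.

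Mc5r, the receptor, was close to the detection limit. Its mean processed signal was 43.0 against 970.3 or more for every other member's brightest probe, and it exceeded background clearly in 22 of 24 channel readings. In MXD its log2 ratios were -0.43 and -0.85 (1W), 1.19 and -0.22 (2W), and 0.14 and -0.31 (3W). With normexp background correction and loess the means became -0.12, 0.14 and -0.05 in place of -0.64, 0.48 and -0.09. At 2W VC was well above background on 1 of its 2 arrays. Mc5r was not called in any comparison.

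**Figure D1:**
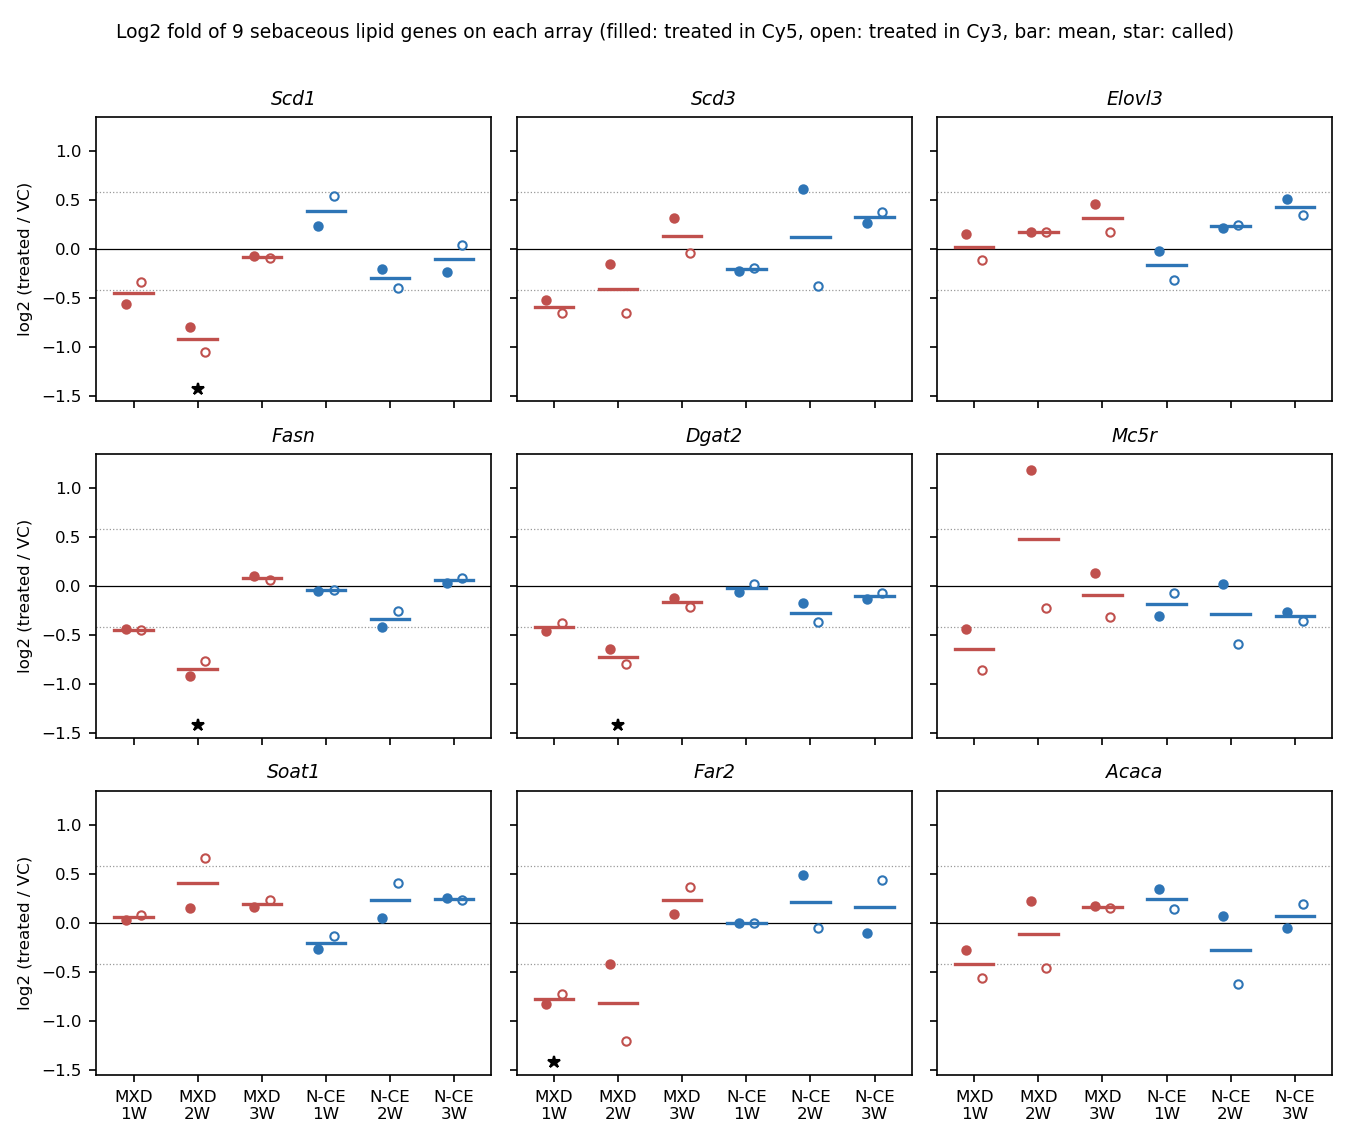
Log2 ratio of treated over VC for each member (vertical axis) in the 6 comparisons (horizontal axis). Filled points are the array with the treated pool in Cy5, open points the array with it in Cy3, bars the mean of both, dotted lines the folds of 1.5 and 0.75, and stars the called values: Scd1, Fasn and Dgat2 in MXD at 2W and Far2 in MXD at 1W, all lower.

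At 3W no member differed from VC by the criteria in MXD: 0 of 9 were called lower and 0 higher, where 0.305% of 16394 genes were called lower and 0.311% higher. The median of the members was 0.14 ± 0.05. Scd1 stood at -0.08 ± 0.02, Fasn at 0.08 ± 0.03, Dgat2 at -0.16 ± 0.06 and Far2 at 0.23 ± 0.19. For Fasn the arrays of 1W and of 2W were all below VC and those of 3W above it.

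In N-CE none of the members was called at any week. At 1W 0 of 9 were called lower and 0 higher, against 2.98% and 0.582% of 17010 genes. At 2W it was 0 and 0, against 0.0814% and 0.128% of 17192 genes, and at 3W 0 and 0, against 0.241% and 0.241% of 16204 genes. At these shares of the whole array, the counts do not set the members apart from other genes. The medians were -0.04 ± 0.01, -0.27 ± 0.30 and 0.07 ± 0.17.

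Individual members in N-CE had means between -0.34 and 0.44. Scd1 at 1W gave 0.24 and 0.54, mean 0.39 ± 0.22, the highest ratio of Scd1 in any comparison, and passed P on 1 array only, with 0.00985. At 2W it gave -0.30 ± 0.14 and at 3W -0.09 ± 0.20. Fasn gave -0.04 ± 0.01, -0.34 ± 0.12 and 0.06 ± 0.03 at the 3 weeks, and Dgat2 -0.02 ± 0.06, -0.27 ± 0.14 and -0.10 ± 0.04. Both genes had further probes on the other side of 0 at 1W, 0.26 ± 0.11 for Fasn and 0.19 ± 0.04 and 0.31 ± 0.15 for Dgat2. Elovl3 at 3W had the highest member ratio in N-CE, 0.44 ± 0.12, with P of 0.0139 and 0.0868. Soat1 had -0.20 ± 0.09, 0.23 ± 0.25 and 0.25 ± 0.01, Scd3 -0.20 ± 0.02, 0.12 ± 0.70 and 0.33 ± 0.07, and Far2 0.00 ± 0.00, 0.22 ± 0.38 and 0.17 ± 0.38. For Scd3 at 2W the arrays gave 0.62 and -0.37 and for Acaca 0.08 and -0.62, opposite directions in each. Mc5r gave -0.18, -0.28 and -0.31 with SDs of 0.16, 0.43 and 0.07.

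**Figure D2:**
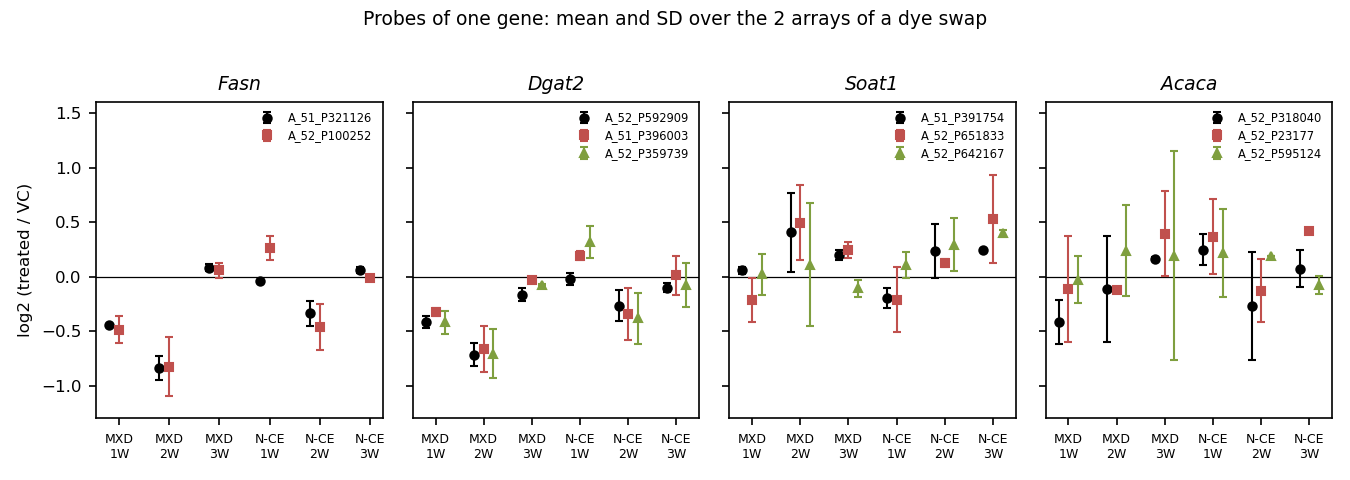
Log2 ratio of treated over VC (vertical axis) for the members with several probes above background, by comparison (horizontal axis), as mean and SD over both arrays, with 1 symbol per probe. The probes of Fasn lie together at -0.84 and -0.82 in MXD at 2W and those of Dgat2 between -0.72 and -0.66, where the 3 probes of Soat1 lie between 0.11 and 0.49 and those of Acaca lie on both sides of 0.

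MXD and N-CE were set against each other through their ratios to the shared VC pool. At 1W the difference MXD minus N-CE was -0.83 ± 0.06 for Scd1, -0.78 ± 0.07 for Far2, -0.66 ± 0.06 for Acaca, -0.40 ± 0.01 for Fasn, -0.40 ± 0.00 for Dgat2 and -0.38 ± 0.11 for Scd3. At 2W it was -1.03 ± 0.17 for Far2, -0.62 ± 0.05 for Scd1, -0.50 ± 0.01 for Fasn, -0.45 ± 0.04 for Dgat2 and -0.52 ± 0.34 for Scd3. Acaca gave 0.16 ± 0.01 at 2W, but its arrays disagreed in direction within each treatment (0.23 and -0.46 in MXD, 0.08 and -0.62 in N-CE). The 2W differences all use the N-CE arrays whose dye swap correlated at -0.17. Each difference was taken within 1 dye orientation, so a dye error shared by both treatments cancels in its SD. Mc5r gave -0.46 ± 0.46 at 1W and 0.77 ± 0.56 at 2W. At 3W Far2, Scd1, Fasn and Dgat2 lay between -0.06 and 0.07, Acaca at 0.09 ± 0.19, Scd3 at -0.18 ± 0.33 and Mc5r at 0.22 ± 0.25. Elovl3 and Soat1 differed by at most 0.26 at any week. The SDs are over dye orientations. The VC readings of the same pool on the MXD and the N-CE arrays differed too, a technical difference between arrays. Over the 3 weeks it was -0.07, 0.58 and 0.55 for Scd1 and 0.00, 0.31 and 0.20 for Fasn. For Elovl3 it was 0.81, -0.51 and -0.20, and for Far2 -0.04, -0.38 and -0.22.

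The only test across pools took the 3 weeks as replicates. limma's moderated test on the weekly log2 ratios, with Benjamini-Hochberg adjustment over all probes, called 0 of the 18 member probes for MXD, where 0% of 41068 probes were called. It called 0 for N-CE, where 0% of 40895 were called, and 0 for MXD minus N-CE, where 0% of 40820 were called. At an unadjusted p under 0.05 it gave 3098, 1490 and 2021 probes of the whole array. The mean over weeks in MXD was -0.48 with an SE of 0.21 for Scd1 (limma adjusted p = 0.63), -0.40 with 0.23 for Fasn (limma adjusted p = 0.63) and -0.34 to -0.43 for the 3 Dgat2 probes. Among the member probes that were above background in all readings, Scd3 had the lowest unadjusted p for MXD minus N-CE, -0.36 with an SE of 0.10 (limma unadjusted p = 0.033, adjusted p = 0.75). Its mean was lower in MXD at 3 of 3 weeks, but at 3W the dye orientations gave 0.05 and -0.42. At 2W its N-CE arrays had opposite signs. Dimmer probes gave lower unadjusted values, 0.0036 for the further Far2 probe and 0.0087 for Acaca A_51_P439426 (limma adjusted p = 0.75 each), the latter above background in 8 of 24 readings. Mc5r in N-CE was -0.26 with an SE of 0.04 (limma unadjusted p = 0.009, adjusted p = 1). A ratio that differs between weeks adds to the error in this fit.

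The level of each member in the 9 pools was followed on the log2 normalised intensity of its probe, which allows no comparison between genes. Between pools it is rough, as a VC level averages readings from the MXD and the N-CE arrays. These VC readings differed by 0.81 for Elovl3 at 1W. At 2W Elovl3 stood at 9.42 in MXD and 9.56 in VC, though its ratio to VC was 0.18. Treated and VC pools are therefore compared by the ratios above, which were taken within an array. The clearest course was that of Scd3. In VC it stood at 12.98 ± 0.10, 11.47 ± 0.48 and 10.50 ± 0.16 over the weeks (4 readings each), a difference of -2.48 between 3W and 1W. The course was shared by MXD, with 12.33 ± 0.13, 11.16 ± 0.23 and 10.76 ± 0.17, and by N-CE, with 12.85 ± 0.06, 11.48 ± 0.13 and 10.67 ± 0.01. In each of the groups the order of Scd3 was 1W above 2W above 3W, with no overlap of readings, and each step exceeded the SD. These readings are technical repeats of 1 pool per group and week, and each week is also 1 slide. In VC every member but Mc5r had its highest level at 1W. The share of all genes with an order like that of Scd3 was not determined.

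Far2 in VC was 10.39 ± 0.15, 10.28 ± 0.51 and 9.01 ± 0.23 over the weeks, where 1W and 2W did not differ beyond their spread. In N-CE it was 10.38 ± 0.19, 10.68 ± 0.34 and 9.28 ± 0.61. In MXD it was 9.65 ± 0.23, 9.28 ± 0.17 and 9.10 ± 0.03, with the readings of 1W above those of 2W and these above those of 3W. The share of all genes with that order in MXD was not determined. At 3W the 3 pools lay between 9.01 and 9.28, within their SDs.

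Fasn in VC was 15.55 ± 0.08, 15.26 ± 0.18 and 14.96 ± 0.14 at the 3 weeks, and Dgat2 15.37 ± 0.06, 14.97 ± 0.24 and 14.80 ± 0.21. In MXD the lowest level of Fasn was at 2W, 14.60 ± 0.04, between 15.14 ± 0.06 at 1W and 15.13 ± 0.01 at 3W. The lowest MXD level was at 2W too for Dgat2, with 15.02 ± 0.07, 14.45 ± 0.04 and 14.80 ± 0.04, and for Scd1, with 14.98 ± 0.03, 14.22 ± 0.09 and 15.01 ± 0.31. In VC Scd1 was 15.42 ± 0.05, 14.83 ± 0.37 and 14.82 ± 0.46, and in N-CE 15.87 ± 0.02, 14.26 ± 0.48 and 14.45 ± 0.35, so 2W and 3W did not differ beyond the spread in either. Soat1, Acaca and Elovl3 in VC were highest at 1W too, by 0.60, 0.56 and 0.92 over their lowest week, and for Elovl3 the SD at 1W was 0.62. Mc5r varied by 0.29 in VC.

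**Figure D3:**
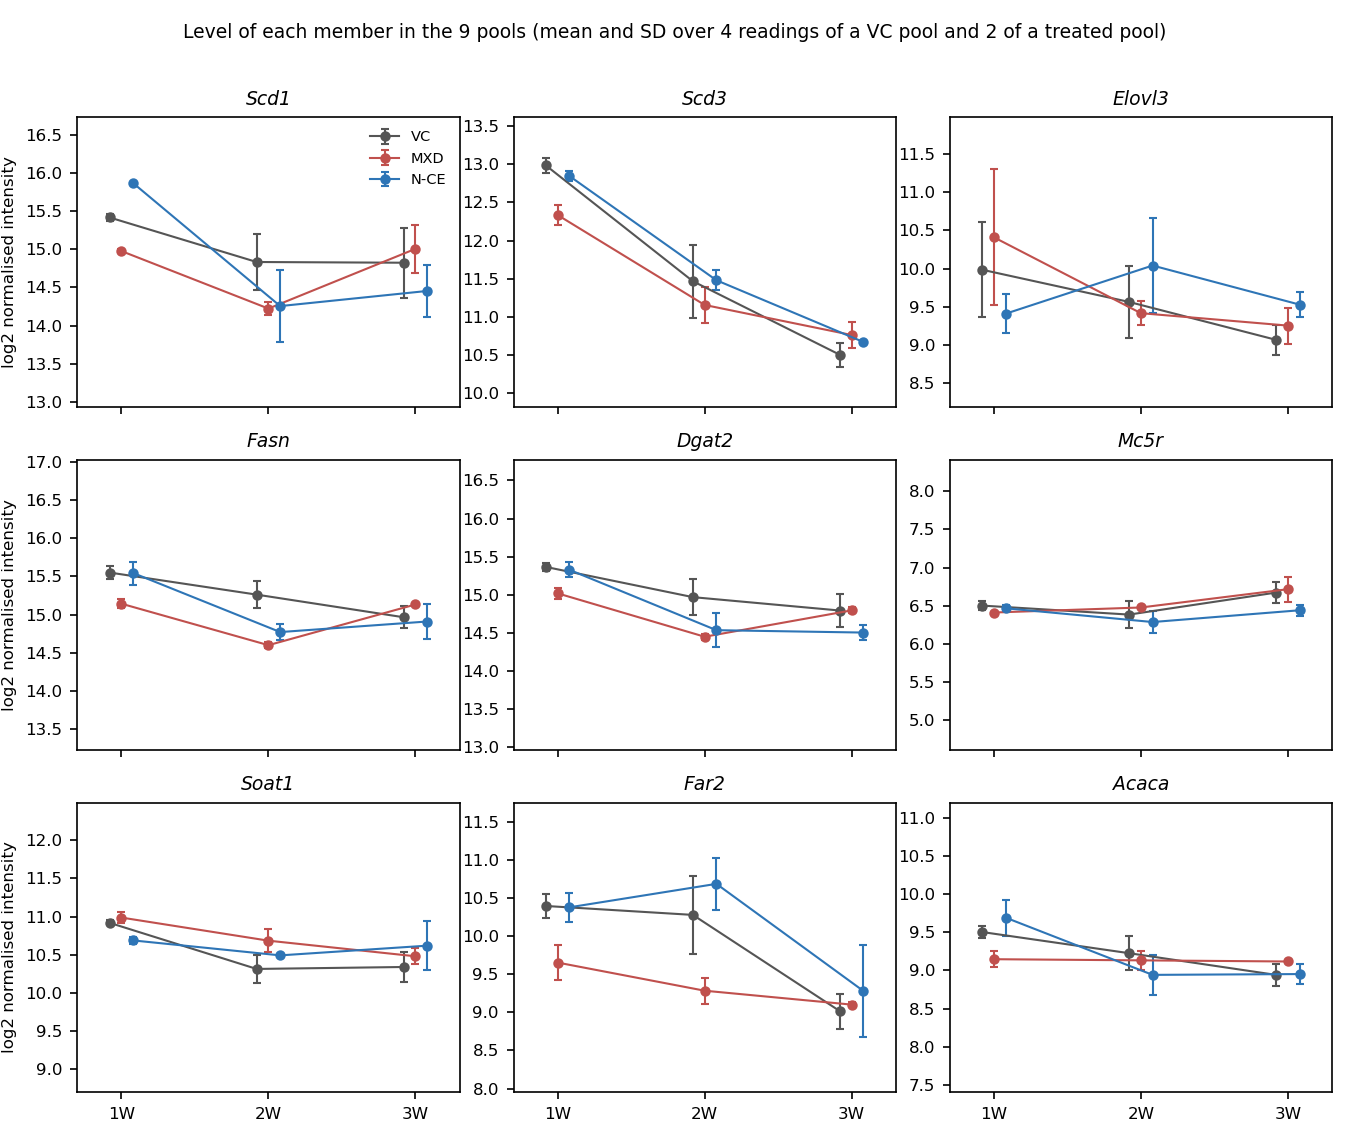
Log2 normalised intensity (vertical axis, with the same span in every panel) of each member at 1W, 2W and 3W (horizontal axis) in VC, MXD and N-CE, as mean and SD over 4 readings of a VC pool and 2 of a treated pool. Scd3 declines in all 3 groups, in VC from 12.98 to 10.50, and Fasn, Dgat2 and Scd1 have their lowest MXD level at 2W.

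The lipid genes around the members were described by lists, whose counts stand beside 11.0% of all measured genes called lower and 6.8% higher in MXD at 2W, 1.36% and 1.34% in MXD at 1W, and 2.98% and 0.582% in N-CE at 1W. Of the 8 measured genes of fatty acid supply, 4 were called lower in MXD at 2W and 0 higher, with a median of -0.46 ± 0.08. Acacb, the mitochondrial acetyl-CoA carboxylase, fell by 1.28 ± 0.51, Thrsp, a lipogenic protein of fat-making tissues, by 1.07 ± 0.04, Acss2, a cytosolic acetyl-CoA synthetase, by 0.79 ± 0.09 and Me1, a source of NADPH, by 0.70 ± 0.12, all on the log2 scale. At 1W all 8 were below VC, and Thrsp was called, with -0.65 ± 0.06. In N-CE 0 of the 8 were called at any week, with medians of 0.12 ± 0.03, -0.19 ± 0.06 and 0.07 ± 0.05.

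Elongation and desaturation genes did not share a direction in MXD at 2W. Of 14 measured, 2 were called higher and 2 lower, with a median of -0.14 ± 0.04. Beside the shares over all genes, neither these counts nor those of the glycerolipid, sterol and regulator lists at 2W set the lists apart. Fads3 rose by 1.12 ± 0.16 and Fads2, the delta-6 desaturase of sebum and polyunsaturated fatty acids, by 1.00 ± 0.14, while Elovl4, an elongase of very long chains in epidermis and gland, fell by 0.70 ± 0.13 and Elovl1 by 0.68 ± 0.08. At 1W Elovl6, the elongase that follows Fasn, fell by 0.67 ± 0.12 as the only call of the list. In N-CE at 1W Fads2 was called lower, with -1.03 ± 0.04, or -0.57 with normexp and loess, and 1 of 14 genes was called. Fads2 was therefore lower with N-CE at 1W and higher with MXD at 2W.

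Among the genes of glycerolipids and wax esters, 3 of 18 were called lower in MXD at 1W and 0 higher, and 3 of 17 lower and 1 higher at 2W, with medians of -0.08 ± 0.00 and -0.26 ± 0.02. Awat2, the wax ester synthase of the gland, fell by 1.13 ± 0.06 at 1W and by 1.12 ± 0.41 at 2W, and normexp and loess moved these to -0.67 and -0.44, as its VC signal was 269 and 171. Lpin1, a phosphatidate phosphatase of fat cells, fell by 0.62 ± 0.01 at 1W and by 0.68 ± 0.19 at 2W, and Agpat2 by 0.74 ± 0.06 at 1W. Agpat4 fell by 1.13 ± 0.08 and Lpin3 rose by 0.88 ± 0.17 at 2W. In N-CE 0 genes of the list were called at any week.

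Of 21 sterol synthesis and uptake genes, 1 was called lower and 1 higher in MXD at 2W, with a median of -0.13 ± 0.06. Msmo1, a demethylase of cholesterol synthesis, fell by 0.68 ± 0.13, and Soat2, the paralogue of Soat1, rose by 1.27 ± 0.13. None was called in the other comparisons but N-CE at 1W. In N-CE at 1W Soat2 was called lower, where N-CE was not well above background and the fold is at least 1.36. Of the lipid regulators, Pparg, the nuclear receptor required for sebocytes and fat cells, fell by 0.92 ± 0.20 and Mlxipl, a sugar-responsive factor, by 0.95 ± 0.23 in MXD at 2W, and Insig1, a brake on sterol synthesis, rose by 0.88 ± 0.28. Srebf1, which drives Fasn and Scd1 in liver, had -0.21 ± 0.02 and -0.18 ± 0.14 in MXD at 1W and 2W without a call. In N-CE at 1W the 1 call of the 14 measured regulators was Mc1r, at least 1.32-fold lower, with N-CE not well above background. Me1, Elovl1, Mc1r, Srebf1 and the N-CE value of Soat2, and below Cidea, Prdm1, Fabp5, Adipoq, Ivl and Adgre1, were named after their values were seen.

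**Figure D4:**
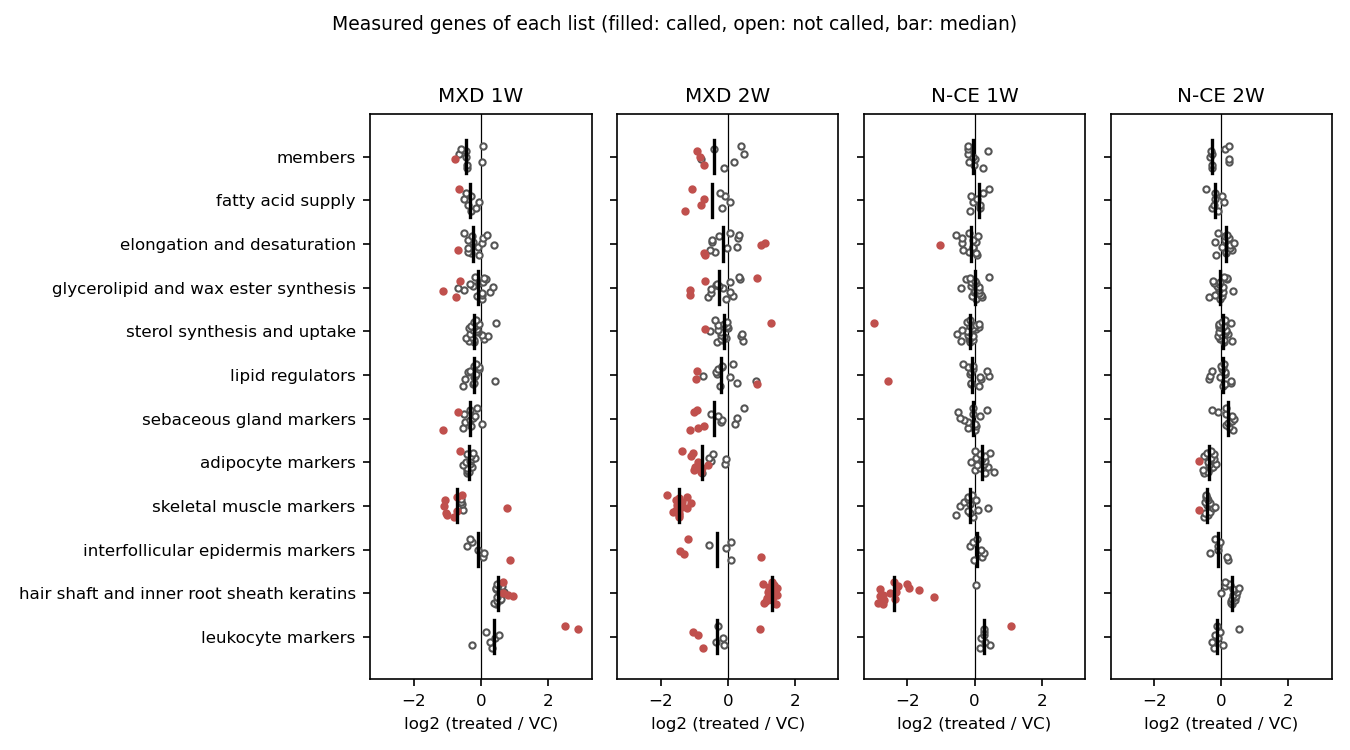
Log2 ratio of treated over VC (horizontal axis) for the measured genes of the members, the lipid lists and the cell type lists (rows) in MXD and N-CE at 1W and 2W. Filled points are called genes, open points genes not called, and bars medians, which in MXD at 2W run from -1.46 for skeletal muscle through -0.78 for adipocytes and -0.40 for the members to 1.32 for the hair keratins.

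Markers of the cell types in the skin moved in the same comparisons, and their part in the members' ratios was not tested. Of 12 measured sebaceous gland markers, 5 were called lower in MXD at 2W, namely Awat2, Plin5, Pparg, Cidea and Elovl4, and 0 higher. The median was -0.40 ± 0.01, where 11.0% of all genes were called lower and 6.8% higher. Awat2, Elovl4 and Pparg were already counted in the lipid lists above, and Pparg is required for fat cells too. Plin5 fell by 1.02 ± 0.37 and Cidea, a lipid droplet protein of the gland, by 0.88 ± 0.06. At 1W 2 were called lower, with a median of -0.33 ± 0.00, and at 3W and in N-CE 0 were called. The summed signal of the 13 markers on the array was 138538 to 180995 in VC and 106087 to 137543 in MXD at 2W, so the ranges did not overlap by a small margin. Muc1 was not measured in any comparison. Prdm1 with 0.49 ± 0.06 and Fabp5 with 0.20 ± 0.00 lay above VC at 2W.

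Adipocyte markers went further than the gland markers in MXD at 2W. All 15 measured were below VC, 9 of them called lower, with a median of -0.78 ± 0.02. Adipoq fell by 0.79 ± 0.02, Plin1 by 1.08 ± 0.23, Retn by 1.04 ± 0.15 and the insulin-responsive glucose transporter Slc2a4 by 1.36 ± 0.06. Their summed signal was 424860 to 537116 in VC and 257240 to 348575 in MXD, a ratio of MXD to VC of 0.63. The same ratio was 0.76 for the gland markers and 0.58 for the 9 members at 2W, and at 1W it was 0.77 for adipocyte markers, 0.77 for gland markers and 0.74 for the members. A sum is carried by its brightest probes. For the members these were Fasn, Scd1 and Dgat2, with mean VC signals of 107193, 83078 and 82147 on the MXD arrays of 2W, against 6770 or less for the others. The members' sum therefore does not stand for the whole set, whose median at 2W was -0.40. At 1W the adipocyte median was -0.36 ± 0.02 with 1 gene called, and at 3W -0.10 ± 0.05 with 0 called. In N-CE the adipocyte medians were 0.24 ± 0.03 at 1W, with 14 of 15 above VC, -0.37 ± 0.02 at 2W, with 15 of 15 below, and -0.21 ± 0.00 at 3W, with 14 of 14 below. Adrb3 and Ucp1 were not measured in any comparison.

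Other cell types changed as well in MXD at 2W, beside the same shares over all genes. All 14 skeletal muscle markers were called lower, with a median of -1.46 ± 0.16, all 16 measured hair shaft and inner root sheath keratins were called higher, with 1.32 ± 0.33, and of 8 epidermal markers Krt1, Krt10 and Lor were lower and Ivl higher. Of 8 leukocyte markers, Ptprc, Lyz2 and Adgre1 were lower and S100a8 higher. The skeletal muscle median in MXD was -0.71 ± 0.12 at 1W, and it was -0.46 ± 0.04 at 3W. For N-CE at 1W, where 0 members were called, 16 of 17 hair keratins were called lower, with a median of -2.40 ± 0.18. The members' median there was -0.04 ± 0.01.

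The genes most like the members over the 6 comparisons were taken from 2869 genes that were above background in both groups everywhere and called at least once. Likeness was the Pearson r of the 6 mean log2 ratios with the mean of the 8 members that met the same condition on signal, all but Mc5r. The highest were Serpina3b with 0.98, Padi2 with 0.97, Lgr6 with 0.96, the unnamed transcript AK007945 with 0.96 and Pnpla5, a lipid droplet lipase, with 0.95. The 6 points share slides and VC pools, and 39 of the 2869 genes had an r above 0.9. Pnpla5 had log2 ratios of -0.57, -0.84 and 0.16 in MXD at 1W, 2W and 3W and -0.04, 0.19 and 0.29 in N-CE. Padi2, which converts arginine to citrulline in proteins, had -1.23, -1.39 and -0.11 in MXD.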

How the data were processed

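Each array file deposited by the authors is the output of Agilent Feature Extraction, version 12.0.3.1 per the file headers and 11.0.1.1 in the submitters' processing notes. As deposited, a spot's log ratio is on the log10 scale, Cy5 divided by Cy3, after the authors' software had subtracted background and applied LOWESS dye normalization. The deposited p-value comes from its error model and describes the spot, not the mice. Signal intensity was deposited raw and processed, and the deposited matrix holds the log10 ratio of the processed intensities.

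Ratios were signed so that treated stands over VC, put on the log2 scale, and averaged first within a probe and then across both dye orientations, without control spots and spots marked as outliers (143 to 355 per array). Levels and an alternative for the ratios used normexp background correction with an offset of 50 and loess, and for levels Aquantile. A gene not measured may be 1 whose spot was marked as an outlier. Where a called gene was below background in 1 group, its fold is given as a bound, the brighter group's mean against the lowest signal well above background there or the probe's own signal, whichever was higher, and this is open to dye bias. The number of arrays limits the precision. Probe positions are on mm9 per the file headers, and promoter sequences and their positions are from RefSeq, build GRCm38.p6. Genes to name were all members with every probe, up to 3 called genes per list and comparison with the largest ratios, where both groups were above background, and the 5 most like genes. The members and lists were chosen with earlier results of these data known. The limma fit ran in limma 3.58.1 under R 4.3.3 and all else in Python 3.11.15 (pandas 2.3.3, numpy 2.4.6), and the calls and the limma fit were tested on simulated data. Alternatives covered the P and fold criteria, background correction, dim probes, the choice of probe, the matrix values, outlier spots, single arrays and weeks.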

Additional observations from a re-analysis of the deposited data

Results flagged for a closer look

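For some members both arrays of a week lay on one side of VC and both arrays of another week on the other side, within the same treatment. These differences between weeks were not tested, since each week is 1 pool. The rule asks for no least size and was applied to the members alone. The share of all genes that meet it was not determined, so it does not set the members apart. In MXD the later minus the earlier week was 0.52 for Fasn between 1W and 3W and 0.92 between 2W and 3W, 1.01 and 1.04 for Far2 over the same pairs of weeks, and 0.58 for Acaca between 1W and 3W, on the log2 scale. In N-CE it was -0.68 for Scd1 between 1W and 2W, 0.53 for Scd3 between 1W and 3W, 0.40 and 0.60 for Elovl3 between 1W and 2W and between 1W and 3W, and 0.43 and 0.44 for Soat1 over the same pairs. For Fasn in N-CE it was 0.10 between 1W and 3W and 0.40 between 2W and 3W. The further Fasn probe went the other way between 1W and 3W, from 0.26 ± 0.11 to -0.01 ± 0.01. The N-CE arrays of 2W, whose dye swap correlated at -0.17, enter 4 of these 13 differences.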

How the results depend on the processing

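In MXD at 2W the members called lower were 3 to 5 when each array was taken alone. Scd3 and Far2 were added on the array with MXD in Cy3, where 16.3% of all genes were called lower, against 17% on the other array. Fold alone added Far2 in MXD at 2W, where 21.9% of all genes were lower. In MXD at 1W, where Far2 was called, the count was 7 by fold alone (6.19% of all genes), 3 with P under 0.05 (2.85%), 2 with normexp, loess and fold alone (2.53%), and 0 with the median over all probes of a gene (1.13%), as the further Far2 probe is below background. Each array alone gave 2 (2.5% of all genes) and 4 (3.36%). For members called higher, single arrays gave 1 and 1 in MXD at 2W (Soat1 or Mc5r), where 10.7% and 13.3% of all genes were called higher. In N-CE at 2W they gave 0 and 1 higher (Scd3), where 1.92% and 1.26% of all genes were. For members called lower in N-CE at 2W they gave 1 (Acaca) and 0, where 2.11% and 1.38% of all genes were. Other alternatives moved no count by more than 1.5 times, and limma called 0 member probes under each of its alternatives. Of 54 ratios from a further probe, 15 did not share the sign of the gene's brightest probe, counting a Far2 ratio of 0 in N-CE at 3W. The sign was opposite in 13 of 108 ratios on a single array and in 2 of 54 with normexp and loess. None of these was a called value. The largest shift with another probe was 1.38, for Acaca in MXD at 2W, where both probes were below VC. The matrix values and the outlier spots left the ratios as they were, since they hold the same numbers for the members, and say nothing about stability. No paired analysis was possible because the 2 arrays of a group are dye swaps of the same pools and the groups hold 1 pool each.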
